A study of Homo sapiens with 9 samples.

Results

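The genes described here are those of homologous recombination and the Fanconi anaemia pathway, taken by symbol from a list of 42 repair genes and read in the gene counts of 9 RNA-seq libraries. The list held 41 genes, because *MRE11* and *MRE11A* are a newer and an older name of the same gene, and all 41 were found among the 19918 genes of the count files. After the filter on low counts 40 of them were tested, out of 12810 genes tested in all. The libraries came from VCaP, an androgen receptor-positive human line established from a vertebral metastasis of prostate cancer. Cells were reverse transfected with 100 pmol of a control siRNA or of one of the siRNAs si025 and si033, both aimed at the first exon of the lncRNA *IGF1R-AS1*, and stranded total RNA was sequenced after 72 h, with 3 libraries in each of the 3 groups. The question was which genes change when this antisense transcript of the *IGF1R* locus is depleted. *IGF1R-AS1* itself was not analysed here, so the knockdown was not checked in these libraries. The study calls the libraries of a group biological replicates, but the labels do not say whether they came from separate cultures, and if they did not, the p-values measure only the spread between these libraries.

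Homologous recombination repairs a DNA double-strand break by copying the sister chromatid. The MRE11-RAD50-NBN complex finds the end and activates ATM, nucleases and helicases cut one strand back, and BRCA1, PALB2 and BRCA2 prepare the exposed strand for the search for the matching sequence, in which RAD54 and the XRCC2 and XRCC3 complexes help. The Fanconi pathway acts when a replication fork meets a crosslink between the strands: a core complex of FANC proteins attaches ubiquitin to FANCD2 and FANCI, and the crosslink is then unhooked and the break repaired by recombination. In prostate cancer, inherited or acquired loss of *BRCA2*, *ATM* and related genes marks tumours treated with PARP inhibitors.

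Library totals ranged from 11649811 to 28492259 assigned reads. Any pair of libraries within a group differed by more than sampling noise, with a chi-square per degree of freedom of 1.72 to 5.09. The 8 prostate epithelial markers were all present, at a summed 4987 to 6047 CPM per library (read counts scaled to a common library size). By contrast, 8 markers of leukocytes, endothelium, fibroblasts and basal epithelium summed to between 3.87 and 9.15 CPM. Of these, *CD3E* and *KRT5* were at 0 in every library, while the basal marker *KRT14* was at 1.24 to 4.98 CPM and the fibroblast marker *COL1A1* at 1.17 to 3.80 CPM. Changes were called from edgeR's quasi-likelihood test in one fit over all 9 libraries, at a Benjamini-Hochberg adjusted p under 0.05 over all genes tested. Both siRNAs changed a large part of the transcriptome, so the counts below are read against that background.

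Most of the repair genes were lower after either siRNA. With si025, 36 of the 40 tested genes fell and none rose, while 61.7% of all genes tested were called, 32.9% higher and 28.8% lower. At an unadjusted p under 0.05 the count of repair genes that were higher with si025 was also 0, in edgeR and in DESeq2. Their median log2 fold change was −0.45, with an interquartile range of −0.77 to −0.26, against 0.02 for all genes tested. With si033, 26 of the 40 fell and none rose, against 54.8% of all genes called, 26.9% higher and 27.8% lower. A single repair gene (*FANCM*) was higher with si033 at an unadjusted p under 0.05 in edgeR and 0 in DESeq2, and the median log2 fold change was −0.24 against 0.00 for all genes. Scaling by library totals alone raised the genes as a whole, from 3449 higher and 3566 lower calls with si033 to 4211 higher and 2888 lower, and under it 21 repair genes were lower with si033 and 4 were higher (*TP53BP1*, *BARD1*, *PALB2* and *FANCM*). In bulk RNA, fewer cells in which a gene is active and less RNA of that gene per cell cannot be told apart.

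**Figure D1:**
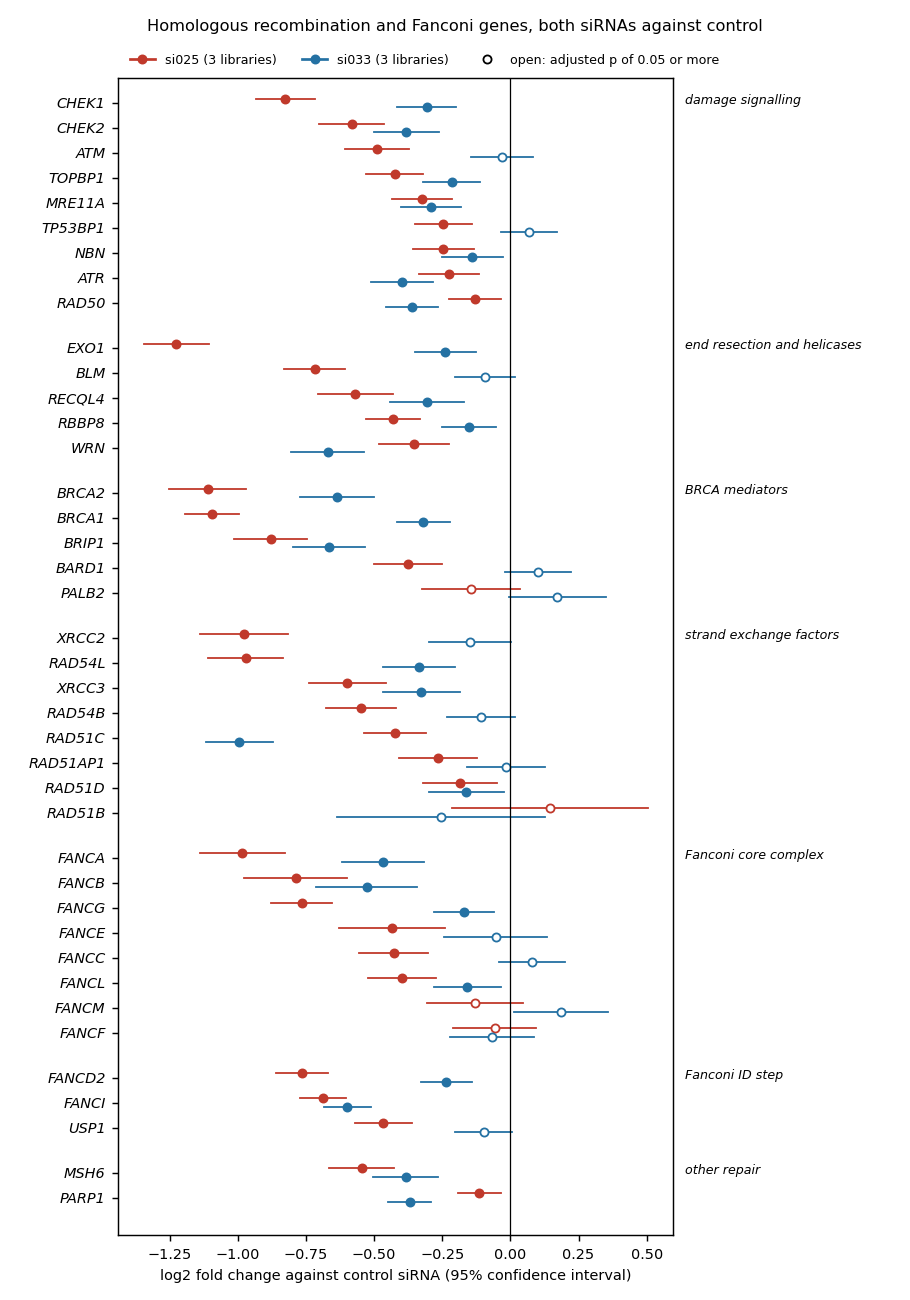
Log2 fold change of each of the 40 repair genes against control siRNA, with its 95% confidence interval, for si025 (red) and si033 (blue), grouped by role and ordered by the si025 change. Filled points passed an adjusted p of 0.05 in edgeR's quasi-likelihood test. No filled point lies to the right of 0, although 4 si033 values did under scaling by library totals alone, and *EXO1* with si025 lies farthest to the left, at −1.22.

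The 26 genes that fell with si033 all fell with si025 as well. Another 10 fell with si025 and were not called with si033 (*ATM*, *BARD1*, *BLM*, *FANCC*, *FANCE*, *RAD51AP1*, *RAD54B*, *TP53BP1*, *USP1* and *XRCC2*), and 4 were called with neither (*FANCF*, *FANCM*, *PALB2* and *RAD51B*). Both comparisons share the 3 control libraries, so these counts are not independent of each other. Comparing the siRNAs directly, 34 of the 40 differed, 29 lower and 5 higher with si025, against 60.9% of all genes called, 31.2% higher and 29.7% lower with si025. The median difference between si025 and si033 over the repair genes was −0.27 on the log2 scale.

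In each library the same shift was seen. The median log2 level of the 40 genes, taken against the mean of the control libraries, was −0.50, −0.49 and −0.40 in the si025 libraries. In the si033 libraries it was −0.22, −0.21 and −0.20, and in the controls it lay between −0.01 and 0.01. All si025 libraries therefore lay below all si033 libraries, and these below all controls, with a standard deviation (SD) between replicates of 0.0349. In the si025 libraries 38 to 40 of the 40 genes were under their control mean, compared with 33 or 34 in the si033 libraries. These counts and medians per library were not made over all genes tested. The median log2 fold change of all genes tested was 0.02 with si025 and 0.00 with si033.

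**Figure D2:**
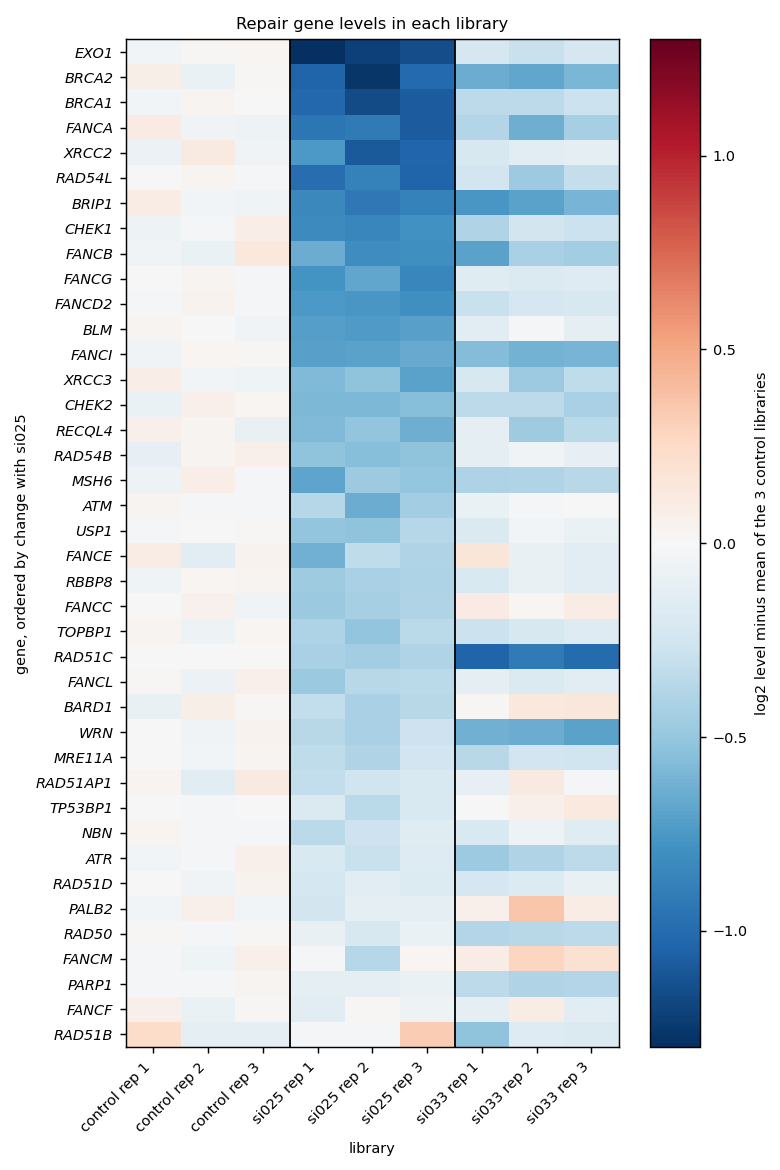
Log2 level of each tested repair gene (rows, ordered by the change with si025) in each of the 9 libraries (columns), minus the mean of the 3 control libraries. Blue is lower and red is higher than that mean. The si025 columns are the darkest blue at the top, and *RAD51C* and *WRN* are rows in which the si033 columns are darker.

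The promoters of 36 of the 41 genes were found among RefSeq's gene starts on GRCh38.p14, each as a window of 250 bases before the start and 50 after it. *NBN*, *WRN*, *RECQL4*, *RAD54B* and *FANCI* had no window. E2F factors, which drive many S-phase genes, bind words such as TTTCCCGC, TTTCGCGC, TTTGCCGC and TTTGGCGC. On either strand, at least one of these words was in a window of 7 of the 36 genes (19.4%; *TOPBP1*, *EXO1*, *XRCC2*, *FANCA*, *FANCC*, *FANCD2* and *MSH6*), compared with 6.52% of the 9949 tested genes with a window and 3.99% of all 27305 genes with one. Windows of 18 genes (50%) held CCAAT, against 43.2% of tested genes, 5 (13.9%) held TTTGAA, a core word of the cell cycle homology region, against 13.4%, and 3 (8.33%) held the E-box CACGTG, against 12.4%. These words were chosen with the expression values known and are a description of the windows, not of binding. Of the 7 genes with an E2F word, the 5 whose values in every library are given below are shown. Their windows are written along the gene's strand, with the word or its reverse complement in capitals. They lie at chr1:241847954-241848253 (plus strand) for *EXO1*, chr7:152676092-152676391 (minus strand) for *XRCC2*, chr16:89816598-89816897 (minus strand) for *FANCA*, chr3:10026187-10026486 (plus strand) for *FANCD2* and chr2:47782895-47783194 (plus strand) for *MSH6*.
EXO1: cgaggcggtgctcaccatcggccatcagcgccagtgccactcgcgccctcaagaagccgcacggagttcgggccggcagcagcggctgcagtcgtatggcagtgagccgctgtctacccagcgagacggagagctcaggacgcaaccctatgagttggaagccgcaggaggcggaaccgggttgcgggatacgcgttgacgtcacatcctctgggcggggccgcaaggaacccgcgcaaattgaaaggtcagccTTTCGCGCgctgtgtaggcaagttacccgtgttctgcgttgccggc
XRCC2: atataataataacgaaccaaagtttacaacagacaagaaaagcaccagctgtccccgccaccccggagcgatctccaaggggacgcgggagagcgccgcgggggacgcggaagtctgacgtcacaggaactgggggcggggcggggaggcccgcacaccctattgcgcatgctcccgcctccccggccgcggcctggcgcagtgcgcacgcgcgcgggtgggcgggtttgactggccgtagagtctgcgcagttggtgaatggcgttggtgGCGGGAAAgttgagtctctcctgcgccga
FANCA: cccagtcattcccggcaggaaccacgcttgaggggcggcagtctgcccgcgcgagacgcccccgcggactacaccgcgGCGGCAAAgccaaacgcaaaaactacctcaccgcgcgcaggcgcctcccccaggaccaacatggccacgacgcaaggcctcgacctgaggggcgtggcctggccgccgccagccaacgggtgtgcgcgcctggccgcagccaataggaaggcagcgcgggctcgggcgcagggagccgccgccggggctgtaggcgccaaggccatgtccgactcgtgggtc
FANCD2: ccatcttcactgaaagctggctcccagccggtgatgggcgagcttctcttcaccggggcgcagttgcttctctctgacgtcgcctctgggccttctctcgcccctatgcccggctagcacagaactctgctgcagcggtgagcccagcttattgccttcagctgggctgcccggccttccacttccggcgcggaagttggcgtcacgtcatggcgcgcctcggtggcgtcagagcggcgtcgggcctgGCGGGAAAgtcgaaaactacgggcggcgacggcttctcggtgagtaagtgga
MSH6: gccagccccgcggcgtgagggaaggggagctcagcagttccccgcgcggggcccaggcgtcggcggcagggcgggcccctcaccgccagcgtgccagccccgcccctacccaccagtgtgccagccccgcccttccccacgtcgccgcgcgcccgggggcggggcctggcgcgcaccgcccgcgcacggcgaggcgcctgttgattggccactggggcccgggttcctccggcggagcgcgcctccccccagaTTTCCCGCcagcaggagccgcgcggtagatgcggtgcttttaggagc
In *XRCC2*, *FANCA* and *FANCD2* the word is on the opposite strand, and the capitals are its reverse complement. The capitals begin within 22 bases of the annotated start in *EXO1*, *XRCC2*, *FANCD2* and *MSH6*, and begin 172 bases before it in *FANCA*.

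Genes that sense the break and signal from it all fell with si025, 9 of 9 tested, and 7 of the 9 fell with si033. As for the other roles below, these counts stand beside 28.8% and 27.8% of all genes tested that were lower. *CHEK1*, the kinase that holds back the cell cycle when replication is stalled (chr11:125624910-125676259), was at 119, 123 and 132 CPM in the control libraries, 70.0, 69.1 and 72.2 CPM with si025, and 94.7, 105 and 102 CPM with si033. The 3 groups did not overlap, and si025 was the lowest. Its log2 fold change was −0.83 ± 0.05 (SE) with si025 (adjusted p = 4.7e-12) and −0.31 ± 0.05 with si033 (adjusted p = 2.5e-05), and the difference between the siRNAs was −0.52 ± 0.05 (adjusted p = 1.57e-08). *CHEK2*, the checkpoint kinase downstream of ATM (chr22:28687743-28741866), gave 44.3, 49.3 and 48.0 CPM in controls, 31.4, 31.5 and 32.0 CPM with si025 and 37.3, 37.2 and 35.1 CPM with si033. Again the groups were separate and in the same order, with changes of −0.58 ± 0.06 (adjusted p = 8.93e-09) and −0.38 ± 0.06 (adjusted p = 6.37e-06). *CHEK2* has pseudogene copies in the genome, and reads that match more than one place may be missing from its count.

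*ATM*, the kinase activated by double-strand breaks (chr11:108222484-108369102), fell with si025 and was not called with si033. Its level was 142, 137 and 138 CPM in the controls and 107, 88.8 and 102 CPM with si025, all below the controls, while the si033 libraries, at 130.4, 137 and 139.7 CPM, overlapped them. The log2 fold change was −0.49 ± 0.06 with si025 (adjusted p = 8.83e-08) and −0.03 ± 0.06 with si033, with a 95% interval of −0.14 to 0.08 (adjusted p = 0.669). The siRNAs themselves differed by −0.46 ± 0.06 (adjusted p = 2.34e-07). *TP53BP1*, which shields broken ends from being cut back, had a similar pair of values, −0.25 with si025 and 0.07 with si033, the latter not called (interval −0.03 to 0.17).

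*ATR*, the kinase that responds to single-stranded DNA at stalled forks, and *RAD50*, the long coiled-coil subunit of the end-binding complex, were lower with si033 than with si025. *ATR* changed by −0.23 with si025 and by −0.40 with si033, *RAD50* by −0.13 and −0.36, and both were higher with si025 than with si033, by 0.17 and 0.23. The *ATR* difference was lost when si025 replicate 3 or si033 replicate 1 was left out (adjusted p = 0.0575 and 0.0601), and the *RAD50* change with si025 without si025 replicate 2 or control replicate 3 (adjusted p = 0.09 and 0.0525) or with library totals alone (−0.08, adjusted p = 0.136). *MRE11A*, the nuclease of the same complex, changed by nearly the same amount with each siRNA, −0.32 and −0.29, a difference of −0.03 with an interval of −0.14 to 0.08. *NBN*, which links that complex to ATM, fell by 0.25 with si025 on the log2 scale and by 0.14 with si033, and the second of these lost its call without any one of the control libraries or si033 replicate 1 or 3 (adjusted p = 0.0678 to 0.128). That si033 call was also lost with upper quartile scaling (−0.11, adjusted p = 0.0789) and with library totals alone (−0.09, adjusted p = 0.175). *TOPBP1*, the activator of ATR, fell with both (−0.42 and −0.21).

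*MDC1*, the scaffold that spreads the damage signal along chromatin, had 1 to 17 reads per library and was not tested. It lies on chromosome 6 between 28 and 34 Mb, where 158 of 185 genes (85.4%) had under 20 reads in every library, compared with 291 of the 844 other genes of that chromosome (34.5%). Genes that nearly every cell uses were empty there too, with at most 0 reads for *TUBB* and 1 for *FLOT1* and for *ABCF1*. The reads of *MDC1* therefore give no expression level, and the cause of the gap was not tested.

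The end-cutting nucleases and helicases held the largest single change. *EXO1*, the exonuclease that extends resection (chr1:241847967-241889939), was at 56.5, 58.5 and 59.1 CPM in the controls, 23.2, 24.96 and 26.0 CPM with si025 and 50.02, 47.6 and 50.01 CPM with si033. Every si025 library was under every other library by a wide margin, and the si033 libraries were also all below the controls. Its level fell by 57.2% with si025. The log2 fold change was −1.22 ± 0.06 with si025 (adjusted p = 3.48e-14) and −0.24 ± 0.05 with si033 (adjusted p = 0.000719). At −0.99 ± 0.06, the difference between the siRNAs was the largest of the 40 genes (adjusted p = 1.22e-12).

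*BLM*, the helicase mutated in Bloom syndrome, which unwinds ends for resection and undoes joined DNA molecules (chr15:90717327-90815462), gave 62.2, 61.0 and 58.8 CPM in the controls, 36.8, 36.4 and 37.1 CPM with si025, and 55.0, 59.7 and 55.6 CPM with si033. The si025 libraries were separate from all others, whereas si033 overlapped the controls. It fell with si025, by 0.72 ± 0.05 on the log2 scale (adjusted p = 9.81e-11), and its value with si033 was −0.09 ± 0.05 with an interval of −0.20 to 0.02 (adjusted p = 0.14), and the siRNAs differed by −0.62 ± 0.05 (adjusted p = 1.1e-09). The helicase *RECQL4* fell with both siRNAs (−0.57 and −0.31), as did *RBBP8*, which encodes the resection starter CtIP (−0.43 and −0.15). The si033 change of *RBBP8* was lost without control replicate 3 (adjusted p = 0.0624) and with library totals alone (−0.10, adjusted p = 0.0738). *WRN*, the helicase and exonuclease mutated in Werner syndrome, was the exception in order, and its values were chosen for display after they were seen. It was at 33.5, 32.7 and 34.7 CPM in controls, 26.2, 25.1 and 27.8 CPM with si025 and 21.8, 21.4 and 20.7 CPM with si033, so that the si033 libraries were the lowest. Its changes were −0.35 ± 0.06 with si025 and −0.67 ± 0.06 with si033, and the siRNAs differed by 0.31 ± 0.07 (adjusted p = 0.000252).

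Of the 5 BRCA mediators 4 fell with si025 and 3 with si033. *BRCA1*, the ubiquitin ligase that favours resection and brings in PALB2 (chr17:43044295-43125483), had 144, 151 and 148 CPM in the controls, 72.4, 65.9 and 69.5 CPM with si025 and 116, 117 and 121 CPM with si033. The groups did not overlap, and the si025 libraries were the lowest. Its log2 fold change was −1.09 ± 0.05 with si025 (adjusted p = 8.66e-15) and −0.32 ± 0.05 with si033 (adjusted p = 4.28e-06), a difference of −0.78 ± 0.05 (adjusted p = 3.03e-12). A partial *BRCA1* pseudogene lies next to the gene, which may take reads from the shared part.

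*BRCA2*, the mediator that readies the cut strand for invasion (chr13:32315480-32399672), was at 50.6, 45.3 and 48.6 CPM in controls, 23.3, 19.9 and 23.8 CPM with si025 and 30.7, 30.0 and 31.8 CPM with si033. All knockdown libraries were below all controls, and si025 below si033. It fell by 1.11 ± 0.07 on the log2 scale with si025 (adjusted p = 2.44e-12) and by 0.64 ± 0.07 with si033 (adjusted p = 2.59e-08), and the siRNAs differed by −0.47 ± 0.07 (adjusted p = 4.89e-06). *BRIP1*, the helicase that binds BRCA1, fell with both siRNAs (−0.88 and −0.67). Its siRNA difference of −0.21 was lost without si033 replicate 3 (adjusted p = 0.101).

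The other partners of BRCA1 gave smaller values. *BARD1*, the obligate partner of BRCA1 in its ligase, fell with si025 (−0.38), and with si033 its value was 0.10 with an interval of −0.02 to 0.22. *PALB2*, the bridge between BRCA1 and BRCA2, was called with neither siRNA, at −0.15 (interval −0.33 to 0.04) and 0.17 (interval −0.0050 to 0.35). Its counts were low, 12.5 to 19.0 CPM over all libraries, yet the siRNAs differed by −0.32 ± 0.09 (adjusted p = 0.0027), as they did for all 5 mediators.

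**Figure D3:**
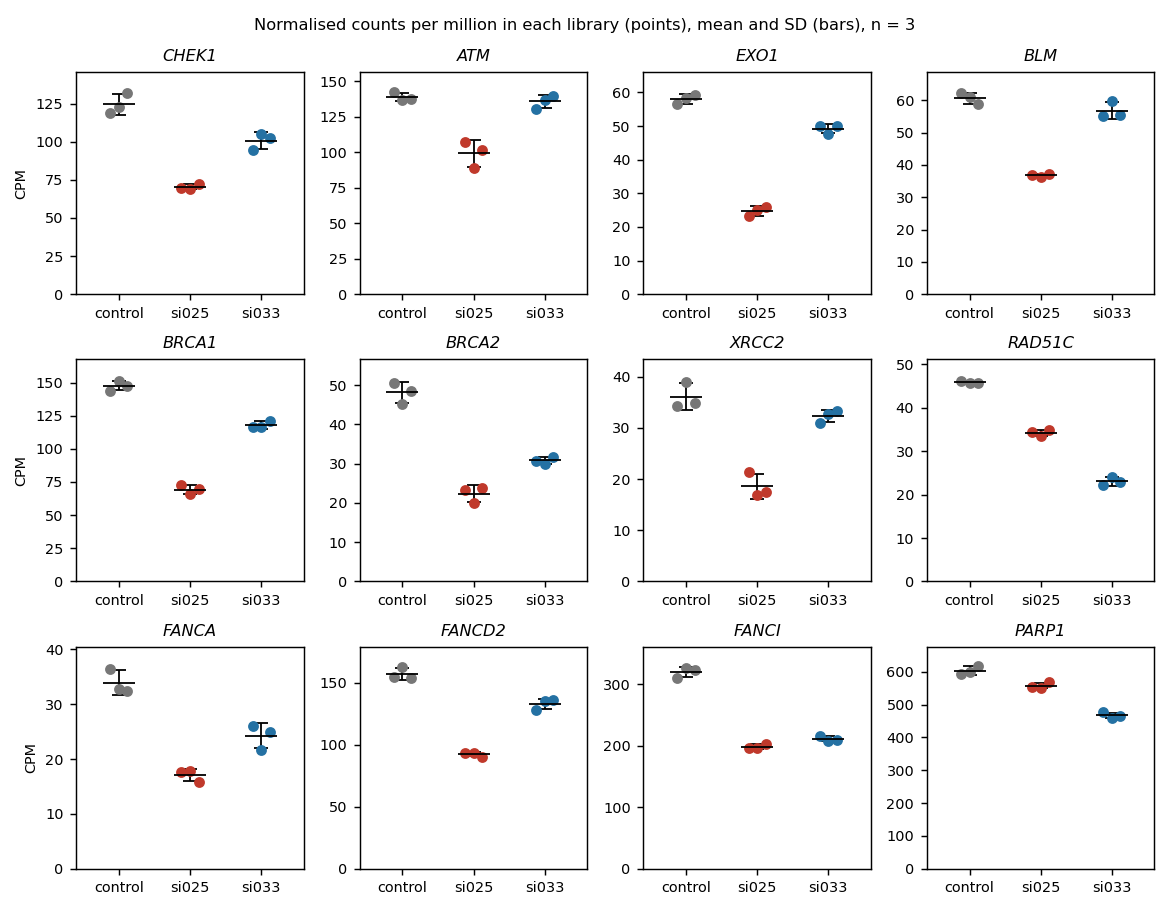
Normalised read counts in CPM (vertical axes, each starting at 0) of 12 repair genes in the control, si025 and si033 groups. Points are the 3 libraries of a group, and the horizontal line and bars are their mean and SD. *EXO1*, *BLM*, *BRCA1* and *XRCC2* are lowest with si025, while *RAD51C* and *PARP1* are lowest with si033.

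The factors that help strand exchange fell in 7 of 8 genes with si025 and in 4 of 8 with si033, where 28.8% and 27.8% of all genes tested were lower and 61.7% and 54.8% were called in either direction. *XRCC2*, which helps the strand invasion step (chr7:152646498-152676165), was at 34.2, 39.1 and 34.96 CPM in the controls, 21.4, 16.8 and 17.6 CPM with si025 and 31.1, 32.8 and 33.3 CPM with si033. The si025 libraries were far below the others, and the si033 libraries were just under the lowest control. The change with si025 was −0.98 ± 0.08 (adjusted p = 2.09e-10), that with si033 did not pass the test (−0.15, interval −0.30 to 0.0023, adjusted p = 0.089), and the siRNAs differed by −0.83 ± 0.08 (adjusted p = 3.9e-09). *RAD54L*, the motor that opens the template duplex (chr1:46247695-46278477), gave 40.9, 41.9 and 40.2 CPM in controls, 20.6, 22.2 and 19.8 CPM with si025 and 34.5, 29.6 and 33.0 CPM with si033. Here the 3 groups were separate, with changes of −0.97 ± 0.07 (adjusted p = 1.8e-11) and −0.33 ± 0.06 (adjusted p = 0.000111).

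*RAD51C*, a subunit of both the XRCC2 and the XRCC3 complex (chr17:58692538-58734342), had the largest fall with si033 of the 40 genes and was chosen for display after its values were seen. Its libraries were at 46.2, 45.7 and 45.8 CPM in controls, 34.3, 33.4 and 34.9 CPM with si025, and 22.2, 24.1 and 22.8 CPM with si033. The groups were separate and si033 was the lowest, the reverse of the order in *XRCC2*. The log2 fold change was −0.42 ± 0.05 with si025 (adjusted p = 6.04e-07) and −0.99 ± 0.06 with si033 (adjusted p = 1.66e-12), a difference of 0.57 ± 0.06 (adjusted p = 2.1e-08).

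Among the rest, *XRCC3*, the partner of RAD51C, fell with both siRNAs (−0.60 and −0.33). *RAD54B*, a second RAD54 motor, and *RAD51AP1*, which stimulates strand exchange, fell with si025 (−0.55 and −0.27) and gave −0.11 (interval −0.23 to 0.02) and −0.01 (interval −0.16 to 0.13) with si033. *RAD51D*, which binds XRCC2, was close to the threshold, at −0.18 (adjusted p = 0.0185) and −0.16 (adjusted p = 0.0443). Its si025 call was lost without si025 replicate 1 or 3 or control replicate 3 (adjusted p = 0.0508 to 0.091), and its si033 call without any one of the controls, si033 replicate 1 or 2, or si025 replicate 3 (adjusted p = 0.0504 to 0.198). Other processing also ended these calls, library totals alone for si025 (adjusted p = 0.0833), and for si033 upper quartile scaling, library totals alone, the DESeq2 test, no count filter and the fit of 2 groups (adjusted p = 0.0555 to 0.181). *RAD51B* was at only 2.22 to 4.11 CPM and was called in no comparison, with values against control of 0.14 (interval −0.22 to 0.51) and −0.25 (interval −0.63 to 0.13). Its siRNA difference of 0.40 was called with length and GC offsets (adjusted p = 0.0459) and without si025 replicate 2 (0.48, adjusted p = 0.0421).

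The Fanconi core complex fell in 6 of 8 genes with si025 and in 4 of 8 with si033, against 28.8% and 27.8% of all genes tested that were lower and 61.7% and 54.8% called in either direction. *FANCG*, which holds the complex together with FANCA (chr9:35073838-35080016), was at 76.6, 79.2 and 75.5 CPM in the controls, 45.01, 48.2 and 42.7 CPM with si025 and 69.3, 67.5 and 68.6 CPM with si033. The groups did not overlap, but si033 lay much nearer to the controls. It fell by 0.77 ± 0.05 on the log2 scale with si025 (adjusted p = 2.87e-11). The smaller change with si033, −0.17 ± 0.05 (adjusted p = 0.00876), was lost without control replicate 2 (adjusted p = 0.0527) and with library totals alone (adjusted p = 0.0678). The siRNAs differed by −0.60 ± 0.05 (adjusted p = 2.33e-09).

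*FANCA*, the most often mutated gene in Fanconi anaemia (chr16:89737551-89816658), gave 36.5, 32.8 and 32.3 CPM in controls, 17.6, 17.8 and 15.9 CPM with si025 and 26.0, 21.7 and 24.99 CPM with si033. Every knockdown library was under every control, and si025 was under si033. It changed by −0.98 ± 0.08 (adjusted p = 1.18e-10) and −0.47 ± 0.07 (adjusted p = 9.85e-06). *FANCB*, a subunit of the catalytic module, fell by 0.79 and 0.53 on the log2 scale, and *FANCL*, the ubiquitin ligase itself, by 0.40 and 0.16. The si033 change of *FANCL* was lost without control replicate 1 or 3 or si033 replicate 2 or 3 (adjusted p = 0.0744 to 0.185) and with the DESeq2 test, upper quartile scaling or library totals alone (adjusted p = 0.0621 to 0.145), and the siRNA difference of *FANCB* (−0.26) without si025 replicate 2 or 3 or si033 replicate 2 or 3 (adjusted p = 0.0652 to 0.125) and with the DESeq2 test (adjusted p = 0.0505). *FANCC* and *FANCE*, the adaptors towards FANCD2, fell with si025 (−0.43 each) and were not called with si033, at 0.08 (interval −0.04 to 0.20) and −0.05 (interval −0.24 to 0.14).

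*FANCF*, the adaptor of the core complex, was called in no comparison, at −0.06 (interval −0.21 to 0.09) and −0.07 (interval −0.22 to 0.09), with overlapping libraries in all 3 groups. *FANCM*, the motor that anchors the complex on DNA, had 24.4, 23.6 and 25.8 CPM in the controls, 24.1, 19.1 and 25.02 CPM with si025 and 26.4, 29.9 and 28.2 CPM with si033. The si033 libraries were all above the controls and the si025 libraries overlapped them, although neither change was called (0.18, adjusted p = 0.0649, and −0.13, adjusted p = 0.192). The siRNAs differed by −0.31 ± 0.08 (adjusted p = 0.00238), or by −0.19 without si025 replicate 2 (adjusted p = 0.0285). Without si025 replicate 3 the si025 value was called (−0.22, adjusted p = 0.0457), and the si033 value was called under 7 of the 17 alternatives tried, always as higher.

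All 3 genes of the FANCD2-FANCI step fell with si025 and 2 of them with si033. *FANCD2*, the protein that receives the ubiquitin (chr3:10026387-10101937), was at 155, 162 and 154 CPM in controls, 93.8, 93.0 and 90.4 CPM with si025 and 128, 135 and 136 CPM with si033. The 3 groups were separate. Its log2 fold change was −0.77 ± 0.05 with si025 (adjusted p = 1.71e-12) and −0.23 ± 0.05 with si033 (adjusted p = 0.000126), and the siRNAs differed by −0.53 ± 0.05 (adjusted p = 9.98e-10). Pseudogenes of *FANCD2* lie near it and may hold reads from shared exons.

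*FANCI*, its partner in the clamp (chr15:89243954-89317132), behaved differently. It was at 309.9, 326 and 322 CPM in the controls, 196, 196 and 202 CPM with si025 and 216, 208 and 209 CPM with si033. Both knockdown groups were far below the controls and close to each other. With si025 the change was −0.69 ± 0.04 (adjusted p = 1.73e-12), and with si033 it was −0.60 ± 0.04 (adjusted p = 2.71e-11). Their difference was not called, at −0.09 with an interval of −0.18 to −0.0024 (adjusted p = 0.0702). It was called with the DESeq2 size factors, upper quartile scaling and the DESeq2 test (adjusted p = 0.0365 to 0.0458). *USP1*, the enzyme that removes the ubiquitin again (chr1:62436304-62451804), gave 149, 151 and 152 CPM in controls, 105, 105 and 116 CPM with si025 and 133, 147 and 142 CPM with si033. All si033 libraries were under the controls, but by less than the test required. It fell with si025 (−0.47 ± 0.05, adjusted p = 3.96e-08), and with si033 its value was −0.10 with an interval of −0.20 to 0.01 (adjusted p = 0.108).

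*MSH6* and *PARP1*, listed from other repair pathways, both fell with each siRNA. *MSH6*, which recognises mismatches (chr2:47783082-47806953), was at 74.4, 82.6 and 77.2 CPM in controls, 48.6, 56.2 and 54.8 CPM with si025 and 59.2, 59.6 and 60.5 CPM with si033. The groups were separate, with changes of −0.55 ± 0.06 (adjusted p = 2.08e-08) and −0.38 ± 0.06 (adjusted p = 5.27e-06). Their difference of −0.16 was lost without si025 replicate 1 (adjusted p = 0.12) or si033 replicate 3 (adjusted p = 0.0731).

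*PARP1*, the break sensor inhibited by PARP inhibitors (chr1:226360691-226408100), was the most abundant of the 40 genes, at 151 FPKM (CPM per kilobase of exon) in the controls. Its libraries were at 592, 598 and 619 CPM in controls, 554, 552 and 567 CPM with si025 and 476, 460.3 and 464 CPM with si033. The si033 libraries were the lowest, and those of si025 were just under the controls. It changed by −0.11 ± 0.04 with si025 (adjusted p = 0.0137), a call lost without control replicate 3 (adjusted p = 0.062) and with library totals alone (adjusted p = 0.143), and by −0.37 ± 0.04 with si033 (adjusted p = 2.97e-08). The difference was 0.26 ± 0.04 (adjusted p = 4.92e-06). Like *CHEK2*, *PARP1* has pseudogene copies. Together with *RAD50*, *ATR*, *WRN* and *RAD51C*, it was one of the 5 repair genes higher with si025 than with si033.

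Corrected for length, the control levels of the 40 genes ranged from 0.244 FPKM for *RAD51B* to 151 FPKM for *PARP1*. After *PARP1* came *FANCI* (66.6 FPKM), *USP1* (35.9 FPKM), *TOPBP1* (29.5 FPKM) and *FANCG* (29.3 FPKM). *BRCA1*, at 20.03 FPKM, was well above *BRCA2*, at 4.23 FPKM, and *PALB2*, at 2.93 FPKM. With si025 *BRCA1* was at 9.41 FPKM and *BRCA2* at 1.96 FPKM.

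Among further genes of the same pathways, which were not on the list, nearly all calls with si025 were falls, while calls with si033 went in both directions. Of 28 further homologous recombination genes tested, 14 fell and 1 rose with si025, and 11 fell and 5 rose with si033, with medians of −0.23 and −0.02 on the log2 scale. Over all genes tested 28.8% were lower and 32.9% higher with si025, and 27.8% and 26.9% with si033, which is also the background of the Fanconi and end joining counts that follow. *DNA2*, a resection nuclease (−1.01), and *CLSPN*, the mediator of CHEK1 activation (−0.84), had the lowest values with si025. *CLSPN* (−0.58) and *RIF1*, which acts with TP53BP1 (−0.56), had the lowest with si033. *UIMC1*, which recruits BRCA1 to ubiquitin marks, fell least with si025 (−0.18). *SWI5*, a strand exchange cofactor, rose with both (0.46 and 0.29), while *RMI2*, a partner of BLM, fell with si025 (−0.33) and rose with si033 (0.85), the opposite calls being singled out after the values were seen.

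Of 9 further Fanconi genes tested, 5 fell and none rose with si025, and 2 fell and 1 rose with si033. The share lower with si033 (22.2%) was near that of all genes tested (27.8%). *UBE2T*, the enzyme that supplies ubiquitin to FANCL, fell with both (−0.73 and −0.42), *WDR48*, the cofactor of USP1, was lowest after it with si033 (−0.32), and *FAAP24*, which pairs with FANCM, was lowest after it with si025 (−0.57). *RFWD3*, a ubiquitin ligase (−0.44), and *FAAP100*, a partner of FANCB (−0.18), also fell with si025, and *ERCC4*, a nuclease that unhooks crosslinks, rose with si033 (0.32). Of 9 end joining genes tested, 5 fell and 1 rose with si025, and 4 fell and 2 rose with si033. *POLQ*, the polymerase of the alternative end joining route, was called in opposite directions, at −0.67 with si025 (adjusted p = 1.72e-08) and 0.54 with si033 (adjusted p = 3.08e-07). *LIG4*, the ligase of classical end joining, rose with both (0.45 and 0.61), while *XRCC6*, which encodes Ku70 (−0.58 and −0.31), and *LIG3*, a ligase of the alternative route (−0.37 and −0.56), fell with both.

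Many repair genes are most active in S and G2 phase, and markers of proliferation moved with them. All 12 markers fell with si025, with a median of −0.74, and with si033 10 fell and 1 rose, with a median of −0.38. Over all genes tested, 28.8% were lower with si025, and 27.8% were lower and 26.9% higher with si033. The summed level of the markers was 3501 to 3655 CPM in the controls, 2230 to 2258 CPM with si025 and 2661 to 2771 CPM with si033. That was the same order as for the repair genes, and none of the 12 was at 0. *MKI67* (−0.96) and *CCNA2* (−0.89) fell most with si025, *CCNE2* (−0.78) and *CCNB1* (−0.63) with si033. *PLK1* fell less with si025 (−0.29) and *E2F1* less with si033 (−0.30), while *AURKA* fell with si025 (−0.14) and rose with si033 (0.16). The part of proliferation in the repair gene changes was not tested.

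**Figure D4:**
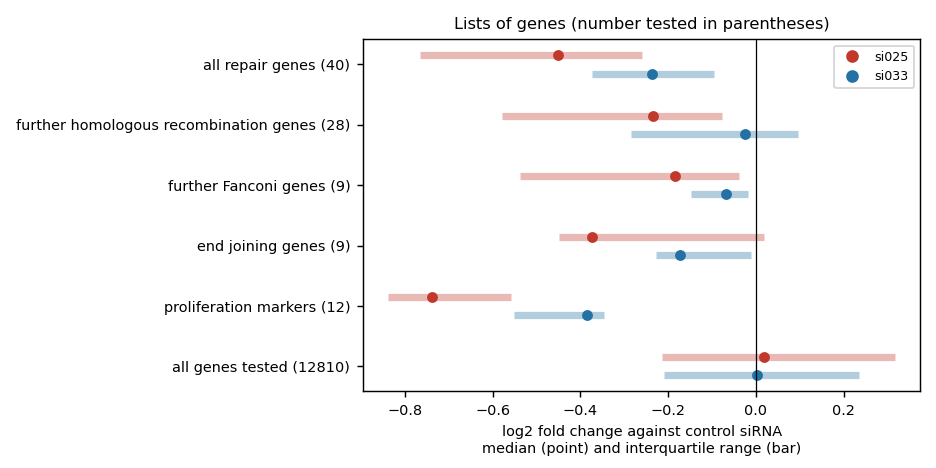
Median (point) and interquartile range (bar) of the log2 fold change against control siRNA for the 40 repair genes, 4 further lists and all 12810 genes tested, with si025 in red and si033 in blue. The repair genes have medians of −0.45 and −0.24, the proliferation markers lie farther from 0, and all genes are centred at 0.02 and 0.00.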

How the data were processed

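Gene counts of 9 libraries were used as the authors deposited them: per the labels and file headers, paired reads sequenced on a HiSeq instrument were aligned with HISAT2 2.1.0 and counted over exons, reversely stranded, with featureCounts 1.5.2 and a RefSeq annotation of hg38, while the study's methods name GENCODE. Reads matching several places were not counted. Symbols and positions were checked against GENCODE 44, and 99.995% of 18246 shared symbols overlapped it.

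Counts were fitted in edgeR 4.0.16 (R 4.3.3) with the quasi-likelihood test: TMM normalisation, filterByExpr, one mean for each of the 3 groups, and Benjamini-Hochberg adjustment over 12810 genes. The common biological coefficient of variation was 4.13%. CPM values are TMM-normalised, FPKM values are divided by exon length and were used only to compare genes, and errors are SE, SD (n = 3) or 95% confidence intervals as named. A fold of 1.25 was recovered for 68% of 50 changed genes in counts simulated for si025 against control, and a fold of 2 for 94% of 50. The simulation changed far fewer genes than were called in the data, and left out only the genes with the fewest reads. Its recovery is therefore not the sensitivity of the comparisons above.

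Values in every library are given for the 2 members of each role with the smallest p for si025 (all in roles of up to 3), the 3 with the largest siRNA difference, any with opposite calls, and *BRCA1*, *BRCA2*, *ATM*, *CHEK1*, *FANCD2* and *PARP1*. *WRN*, *RAD51C* and *FANCM* were added after their values were seen. For the further lists, values follow the 2 highest and 2 lowest called changes. One gene is not reported here. Members, lists and rules were chosen with earlier results of these data known, so no list was given a test of its own. Alternatives were other scalings, DESeq2 1.42.0, no count filter, a fit of 2 groups, a replicate block, length and GC offsets, and leaving out each of the 9 libraries.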

Additional observations from a re-analysis of the deposited data

Results flagged for a closer look

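A difference between the siRNAs in the same model singled out 34 of the 40 repair genes, against 60.9% of all genes tested. Values are log2 differences, si025 minus si033, from edgeR's quasi-likelihood test.

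Among the genes of damage signalling, *CHEK1* (−0.52), *ATM* (−0.46), *TP53BP1* (−0.32), *TOPBP1* (−0.21) and *CHEK2* (−0.20) were lower with si025 than with si033. Of the resection nucleases and helicases, *EXO1* (−0.99), *BLM* (−0.62), *RBBP8* (−0.28) and *RECQL4* (−0.26) were lower with si025 than with si033. Every BRCA mediator was lower with si025, namely *BRCA1* (−0.78), *BARD1* (−0.48), *BRCA2* (−0.47), *PALB2* (−0.32) and *BRIP1* (−0.21). Of the strand exchange factors, *XRCC2* (−0.83), *RAD54L* (−0.64), *RAD54B* (−0.44), *XRCC3* (−0.27) and *RAD51AP1* (−0.25) were lower with si025 than with si033. In the Fanconi core complex, *FANCG* (−0.60), *FANCA* (−0.52), *FANCC* (−0.51), *FANCE* (−0.38), *FANCM* (−0.31), *FANCB* (−0.26) and *FANCL* (−0.24) were lower with si025 than with si033. At the FANCD2-FANCI step, *FANCD2* (−0.53) and *USP1* (−0.37) were lower with si025 than with si033. From the other pathways, *MSH6* (−0.16) was lower with si025 than with si033. Higher with si025 were *RAD51C* (0.57), *WRN* (0.31), *PARP1* (0.26), *RAD50* (0.23) and *ATR* (0.17).

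The 6 genes whose siRNA difference was not called were *MRE11A*, *NBN*, *RAD51B*, *RAD51D*, *FANCF* and *FANCI*. Whether a library stood apart was not checked by a rule, since groups of 3 are too small for that. Among the si025 pairs, those with replicate 2 differed most, with a chi-square per degree of freedom of 5.09 and 4.4. For replicates 1 and 3 it was 2.26.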

How the results depend on the processing

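Over 17 alternatives for each comparison, 33 to 36 repair genes were called with si025, 22 to 27 with si033 and 31 to 35 between the siRNAs, and no gene reversed a call. The median change with si025 was −0.40 with library totals alone and −0.49 to −0.43 when 1 library was left out. With si033 it was −0.18 with library totals alone and −0.25 to −0.19 with 1 library left out. The calls that were lost belonged to 4 genes with si025, 5 with si033 and 4 between the siRNAs, and 1, 4 and 3 genes gained one. With si025 the call of *RAD51AP1* (−0.27) was lost with length and GC offsets (−0.08, adjusted p = 0.184), and with si033 those of *NBN* (adjusted p = 0.467) and *FANCL* (adjusted p = 0.366). The same offsets moved the si025 changes of *NBN* to −0.12 and of *FANCL* to −0.23, both still called. With si033, repair genes were also called higher with upper quartile scaling (2, with 23 lower), with length and GC offsets (3, with 24 lower), and without si033 replicate 1 (2, with 24 lower), and *FANCM* alone without the count filter, in the fit of 2 groups and without si025 replicate 2. Deviations from the group means correlated at −0.021 to 0.073 between libraries with the same replicate number. Counting noise lowers such correlations, so they cannot decide whether the numbers pair the libraries. A fit with the replicate block called 36, 26 and 34 repair genes with medians of −0.45, −0.24 and −0.27. Adding the block changed none of these counts. Low genes such as *RAD51B* are limited by depth, with 27 reads in the library where it had the fewest.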
